A study of Mus musculus with 6 samples.

Results

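The genes described here encode proteins of the sarcomere, the contractile unit of striated muscle: myosin heavy and light chains, actin, troponins, tropomyosins, titin and proteins of the Z disc and M band. They were taken by name from the expression table, which held all 37 among its 19320 genes. In a sarcomere, myosin thick filaments pull on actin thin filaments, calcium binding to troponin and the movement of tropomyosin switch the contact on, titin spans from the Z disc to the M band, and the Z disc anchors the thin filaments of neighbouring sarcomeres. In rodent ventricle the fast alpha myosin heavy chain (Myh6) is the adult form, and a shift towards the slow beta form (Myh7) and towards fetal or skeletal isoforms is a well-known sign of pressure load.

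RNA from tissue labelled mouse heart, with the time label 2 weeks, was sequenced as messenger RNA libraries in 3 groups of 2 samples. The first group was wild-type mice with sham surgery. The second was wild-type mice with transverse aortic constriction (TAC), a narrowing of the aorta that raises the load on the left ventricle. The third was mice with TAC and the genotype label Snai1 knockdown, written shSnai1 in the design text. Snai1 encodes the transcriptional repressor Snail. The delivery of the hairpin, the cells it reached, any control hairpin in the other groups, and the strain, sex, age and pooling of the mice were not stated in the labels. Nor did they say whether both samples of a group were from different mice, and p-values therefore refer to the spread between libraries, possibly a technical one.

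In each group the deposited columns behaved as 60:40 and 40:60 mixtures of 2 libraries, a step that no source mentions. All values below are of the libraries resolved from them, as counts per 1000000 reads (CPM). Depth was 14835962 to 18247816 reads per library. Snai1, the targeted gene, stood at 5.12 and 3.45 CPM in the sham libraries, 4.48 and 4.24 in the TAC libraries and 3.41 and 2.74 in the knockdown libraries, a log2 difference between knockdown and TAC of -0.51 ± 0.33 (standard error, SE) that did not pass the test (limma, adjusted p = 0.999), although both knockdown libraries were below the other 4. The heart label was checked with 16 cardiomyocyte markers that are not sarcomere proteins, all of which were present, with summed levels of 4.37 and 4.44% of reads in the sham libraries, 4.65 and 4.08 in the TAC libraries and 4.24 and 4.39 in the knockdown libraries. Skeletal muscle, the other source of many of these isoforms, was close to absent: 13 of its 14 markers were in the table, their sum was between 0.00193 and 0.00358% of reads, and the calcium-buffer gene Casq1, at 14.6 to 29.7 CPM, made up most of it. The fast skeletal myosin genes Myh1, Myh2 and Myh4 were each below 1 CPM, while Myod1 was at 0 in 5 libraries.

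The 37 genes together took up a large part of each library, with 14.33 and 14.35% of reads in the sham libraries, 15.09 and 14.97% in the TAC libraries and 13.62 and 14.73% in the knockdown libraries. Thick filament genes held 6.80 and 6.85% of reads in the sham libraries, 7.40 and 6.98 in the TAC libraries and 6.20 and 7.14 in the knockdown libraries. Thin filament genes held 5.08 and 4.96% of reads in the sham libraries, 5.08 and 5.43 in the TAC libraries and 4.95 and 5.06 in the knockdown libraries. Titin and the M band genes held 1.01 and 1.07% of reads in the sham libraries, 1.14 and 1.07 in the TAC libraries and 1.07 and 1.03 in the knockdown libraries, and Z disc genes 1.45 and 1.47% of reads in the sham libraries, 1.47 and 1.49 in the TAC libraries and 1.40 and 1.51 in the knockdown libraries. For the whole set the lowest share was in knockdown library 1 and the highest in TAC library 1, and both TAC libraries lay above the other 4.

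To compare genes with each other, CPM were divided by the length of their merged exons in kilobases. On this scale, cardiac actin (Actc1) came first with a mean over the 6 libraries of 10522 CPM per kilobase, ranging from 8529.9 to 13485. Cardiac troponin T (Tnnt2) followed with 9856 (9179.8 to 10491), then the ventricular regulatory light chain Myl2 with 8344 (7914 to 8627), Myh6 with 7724 (6689 to 8386) and cardiac troponin I (Tnni3) with 7571 (6818 to 8771). The ranges overlapped between neighbours in this order except between Tnnt2 and Myl2, and the range of Actc1 also overlapped that of Myl2. The ventricular essential light chain Myl3 (4339 CPM per kilobase), cardiac troponin C (Tnnc1, 4037) and alpha-tropomyosin (Tpm1, 2437) came next. Titin, at 61.7 CPM per kilobase, stood low on this scale, with 6188 to 7533 CPM per library spread over 113588 exon bases. At the bottom were Myh7b (14.7), the skeletal myosin-binding protein gene Mybpc2 (14.5), the third myomesin gene Myom3 (1.10) and slow skeletal troponin I (Tnni1, 0.214). Tnni1 is the fetal cardiac form of troponin I, and it had only 6 and 4 reads in the sham libraries, 7 and 3 in the TAC libraries and 0 and 8 in the knockdown libraries, too few to be tested, so that 36 of the 37 genes passed the filter on low counts. The levels spanned more than 4 orders of magnitude, as the plot of levels per kilobase shows.

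**Figure D1:**
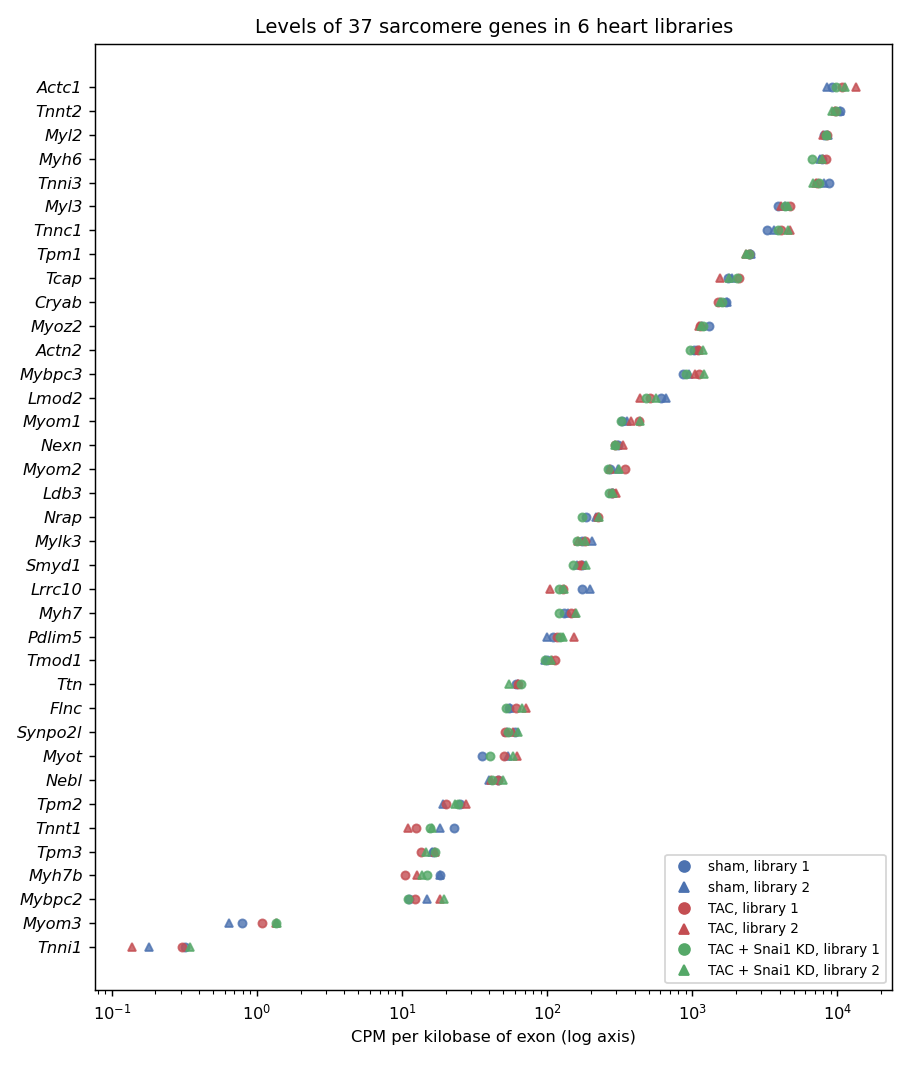
CPM per kilobase of exon on a log axis for the 37 sarcomere genes, ordered by their mean, with 1 point for each of the 6 libraries (circle, library 1; triangle, library 2; colour, group). The spread between libraries is small beside the distance from Actc1 at the top to Tnni1 at the bottom; Tnni1 had 0 reads in knockdown library 1, which is therefore not drawn.

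Between TAC and sham, which asks how pressure load changed these genes, 2 of the 36 tested genes fell and none rose. They were Lrrc10, a leucine-rich repeat protein of cardiomyocytes that binds actin and alpha-actinin in mice, and Myh7b, an ancient myosin heavy chain gene whose transcript in mammalian heart is known to be largely spliced into a form that makes no full-length protein. Over all 14447 genes the test called 0.0761% lower and 0.0831% higher in TAC. At an unadjusted p below 0.05, 4 sarcomere genes were higher (5.86% of all genes were) and 4 lower (3.72% of all genes), which makes 22.2% of them against 9.57% of all genes. The median log2 difference of the 36 genes was 0.04, the same as the 0.04 of all genes.

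Lrrc10 (ENSMUSG00000060187, chr10:117045341-117046768 on the plus strand, GRCm38) stood at 249 and 282 CPM in the sham libraries, 183 and 149.9 in the TAC libraries and 173 and 188 in the knockdown libraries. Both sham libraries lay above the other 4, and TAC library 2 was the lowest. The level in TAC was 1.60-fold lower than in sham, a log2 difference of -0.68 ± 0.12 (limma, adjusted p = 0.0447). Its single exon overlaps no other annotated exon. In RNA from tissue labelled heart, fewer cardiomyocytes and less RNA per cardiomyocyte cannot be told apart for this or any other gene. Of the 16 cardiomyocyte markers, whose sum overlapped between sham and TAC, 11 had groups that did not overlap (68.8%, against 40.1% of all genes), 6 higher in TAC and 5 lower. Among them, the sodium-calcium exchanger gene Slc8a1, rose, with a log2 difference of 0.65 ± 0.11 (limma, adjusted p = 0.0349). The part of these in the values of the sarcomere genes was not tested.

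Myh7b (ENSMUSG00000074652, chr2:155611212-155634307 on the plus strand, GRCm38) stood at 113 and 113 CPM in the sham libraries, 64.3 and 77.7 in the TAC libraries and 91.9 and 84.9 in the knockdown libraries. The sham libraries were almost equal, the TAC libraries were the lowest, and the knockdown libraries lay between them without overlapping either. The level in TAC was 1.59-fold lower than in sham, a log2 difference of -0.67 ± 0.12 (limma, adjusted p = 0.0454). On the opposite strand its exons overlap those of Trpc4ap, and no source says whether reads were counted by strand; Trpc4ap had 141 and 181 CPM in the sham libraries, 156 and 147 in the TAC libraries and 151 and 164 in the knockdown libraries and a log2 difference of -0.08 ± 0.12 between TAC and sham.

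Both calls were close to the threshold of limma's adjusted p of 0.05. That of Lrrc10 was lost without sham library 2 (adjusted p = 0.183), TAC library 2 (0.429), knockdown library 1 (0.0786) or knockdown library 2 (0.0805), and held without sham library 1 (0.0378) or TAC library 1 (0.0296). That of Myh7b was lost when any 1 of the 6 was left out, with an adjusted p of 0.102 and 0.154 without sham library 1 or 2, 0.175 and 0.0878 without TAC library 1 or 2, and 0.0815 and 0.0852 without knockdown library 1 or 2. With no filter on low counts neither passed (adjusted p = 0.0756 for both).

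The promoters of the 2 genes that fell are shown because these genes passed the test. Each window runs from 250 bases before to 50 after the start of transcription in RefSeq (GRCm38.p6), both on the plus strand, at chr10:117045091-117045390 for Lrrc10 and chr2:155610993-155611292 for Myh7b. Capitals mark matches, on either strand, to GATAA (the core read by GATA factors) and to CANNTG (the E-box), which do not overlap here.
Lrrc10: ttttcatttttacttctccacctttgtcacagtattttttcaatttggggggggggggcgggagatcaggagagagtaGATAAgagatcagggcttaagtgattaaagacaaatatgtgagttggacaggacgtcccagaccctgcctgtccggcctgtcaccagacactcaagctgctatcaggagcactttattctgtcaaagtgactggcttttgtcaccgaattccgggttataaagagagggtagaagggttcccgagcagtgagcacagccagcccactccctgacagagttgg
Myh7b: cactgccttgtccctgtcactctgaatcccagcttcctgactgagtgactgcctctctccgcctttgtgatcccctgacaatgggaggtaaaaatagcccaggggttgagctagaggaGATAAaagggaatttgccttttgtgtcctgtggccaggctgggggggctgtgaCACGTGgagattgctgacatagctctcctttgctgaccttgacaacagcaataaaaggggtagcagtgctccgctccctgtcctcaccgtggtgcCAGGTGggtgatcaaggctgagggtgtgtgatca
Each promoter held 1 GATAA, 172 bases before the start in Lrrc10 and 132 bases before it in Myh7b, a match found in 25.4% of the 32851 promoters in the RefSeq table. Myh7b held 2 E-boxes and Lrrc10 none, against 72.3% of all promoters with at least 1. Neither window held CATTCC (the M-CAT element, in 14.7% of promoters), a CArG box (1.63%) or a MEF2 site (3.19%) in the forms searched.

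Myh7b and the main cardiac myosin genes each carry a microRNA in an intron, on the same strand as the host, and these are shown because the first is transcribed from within a gene that fell. Capitals mark the seed, bases 2 to 8 of the mature form (RefSeq, GRCm38.p6).
miR-499-5p: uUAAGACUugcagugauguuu
miR-208a-3p: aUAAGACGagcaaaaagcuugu
miR-208b-3p: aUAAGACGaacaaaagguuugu
The first lies in Myh7b at chr2:155622893-155622913 on the plus strand, the second in Myh6 at chr14:54949072-54949093 and the third in Myh7 at chr14:54975710-54975731, both on the minus strand. miR-208a-3p and miR-208b-3p share their seed, and that of miR-499-5p differs from it only in its last base, base 8. The mature microRNAs were not measured by these libraries. Reads assigned to the Mir208b gene numbered 24 to 55 per library, with its highest and its lowest count both in TAC.

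**Figure D2:**
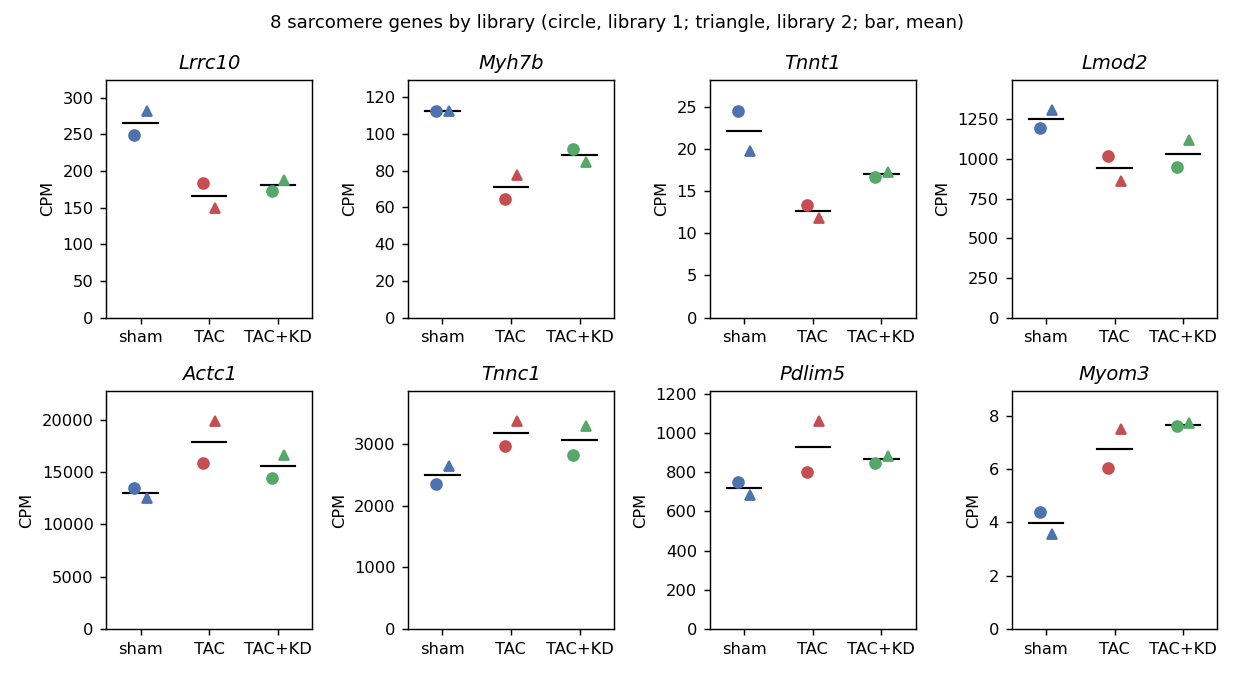
CPM of 8 sarcomere genes in each library (circle, library 1; triangle, library 2; bar, group mean; the vertical axes start at 0). Lrrc10 and Myh7b fell between sham and TAC; for the other 6 the sham libraries lie apart from the TAC libraries and the difference did not pass the test.

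For 22 of the 36 genes, Lrrc10 and Myh7b included, the TAC libraries did not overlap the sham libraries (61.1%, against 40.1% of all genes). TAC was above in 13 (36.1%, against 23.7% of all genes) and below in 9, where 16.4% of all genes were below. This split depended on the scaling, being 9 above and 10 below with median ratio scaling and 10 and 8 with quantile normalization. The median log2 difference of all genes moved as well, from 0.0373 to 0.0021 with median ratio scaling and 0.0065 with quantile normalization. The split of all genes under these scalings is not given here, so the change is not read as one of the sarcomere genes. The genes of the groups below are given with their values, and apart from Lrrc10 and Myh7b none of them passed. The sums of 3 marker lists (atrial, macrophage and immediate early) did not overlap between sham and TAC either, and the atrial values stand beside those of Actc1. Those of 9 macrophage genes were 0.0419 and 0.0387% of reads in the sham libraries, 0.0518 and 0.0639 in the TAC libraries and 0.0811 and 0.0570 in the knockdown libraries. Those of 6 immediate early genes, which respond to stress and handling, were 0.0219 and 0.0254% of reads in the sham libraries, 0.0144 and 0.0132 in the TAC libraries and 0.0169 and 0.0116 in the knockdown libraries. Their part in these differences was not tested.

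Among the thick filament genes, Myh6 (alpha myosin heavy chain, on chr14:54941921-54966927) had 47646 and 46592 CPM in the sham libraries, 51262 and 48704 in the TAC libraries and 40888 and 48192 in the knockdown libraries. Its log2 difference between TAC and sham was 0.08 ± 0.22 (limma, adjusted p = 0.936), with a 95% interval from -0.39 to 0.56. Myh7, the slow chain encoded next to it, had 821 and 885 CPM in the sham libraries, 920.3 and 978 in the TAC libraries and 764 and 999 in the knockdown libraries and a log2 difference of 0.15 ± 0.13 (adjusted p = 0.748, 95% interval from -0.12 to 0.43). The groups did not overlap for either gene, but the TAC libraries exceeded the highest sham library by little. The 2 mRNAs resemble each other, and 21.9% of the 50-base stretches of Myh6 transcripts recur in Myh7, so reads could be divided wrongly between them and both counts are uncertain. The antisense RNA Mhrt also overlaps Myh7 and had 49.4 and 35.2 CPM in the sham libraries, 24.7 and 30.02 in the TAC libraries and 35.3 and 25.4 in the knockdown libraries.

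The regulators of the thick filament showed small differences. Myosin-binding protein C of heart (Mybpc3), which tunes cross-bridge cycling, had 3583 and 3967 CPM in the sham libraries, 4618 and 4357 in the TAC libraries and 3745 and 5007 in the knockdown libraries, a log2 difference of 0.25 between TAC and sham. Its skeletal relative Mybpc2 had 40.04 and 53.6 CPM in the sham libraries, 44.3 and 66.4 in the TAC libraries and 39.6 and 70.7 in the knockdown libraries, and there library 2 was higher than library 1 in every group. The same held for Myh7, Tnnc1, Actn2, Myot, Ldb3, Nrap and Flnc, while Tnni3 and Myoz2 were lower in library 2 in every group. The share of all genes with the same sign in every group is not given here. Mylk3, the cardiac kinase that phosphorylates Myl2, had 689 and 798 CPM in the sham libraries, 720.1 and 645 in the TAC libraries and 630.1 and 720.2 in the knockdown libraries. The light chain genes Myl2 and Myl3 and Smyd1, a methyltransferase that assists myosin assembly in muscle, had log2 differences of -0.03, 0.09 and 0.03, with overlapping groups. Their levels over the 6 libraries were 9837 to 10724, 4152 to 5035 and 688 to 842 CPM.

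Thin filament genes lay on both sides of sham in TAC. Actc1 had 13526 and 12564 CPM in the sham libraries, 15917 and 19864 in the TAC libraries and 14446 and 16676 in the knockdown libraries, with both sham libraries below the other 4 and TAC library 2 the highest. The log2 difference between TAC and sham was 0.45. Tnnc1, the calcium sensor of the filament, had 2357 and 2637 CPM in the sham libraries, 2965 and 3379 in the TAC libraries and 2829 and 3297 in the knockdown libraries, again with sham lowest, and a log2 difference of 0.34. The partners of Tnnc1 in the troponin complex had the opposite sign: Tnnt2 had 13250.4 and 13178 CPM in the sham libraries, 12078 and 12176 in the TAC libraries and 12413 and 11594 in the knockdown libraries, and Tnni3 had 7999 and 7391 CPM in the sham libraries, 6585 and 6453 in the TAC libraries and 6781 and 6218 in the knockdown libraries. For both, every sham library lay above every other library, with log2 differences of -0.12 and -0.24 between TAC and sham.

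The 6 atrial markers, all in the table, summed to 0.0235 and 0.0160% of reads in the sham libraries, 0.0322 and 0.0461 in the TAC libraries and 0.0195 and 0.0320 in the knockdown libraries, highest in TAC library 2, as Actc1 was. Nppa, which is also a load marker, made up most of the sum in TAC library 2, with 113 and 68.2 CPM in the sham libraries, 173 and 346 in the TAC libraries and 106 and 205 in the knockdown libraries. Bmp10, a growth factor gene of the atria, had 105 reads in TAC library 2, 4 in knockdown library 1 and 0 in the other 4 libraries. The remaining 4 markers were lower in TAC library 2 than in TAC library 1, for example Myl7 with 35.7 and 24.1 CPM in the sham libraries, 49.7 and 35.9 in the TAC libraries and 25.4 and 39.2 in the knockdown libraries and Myl4 with 52.2 and 32.9 CPM in the sham libraries, 62.2 and 44.4 in the TAC libraries and 31.7 and 42.6 in the knockdown libraries. Skeletal actin (Acta1), known to respond to load, was also highest in TAC library 2, with 601 and 515 CPM in the sham libraries, 782 and 1582 in the TAC libraries and 606 and 1379 in the knockdown libraries. Of the 5 load markers listed, Nppa, Acta1 and Xirp2 were higher in both TAC libraries than in both sham libraries. Nppb and Ankrd1 were below both sham libraries in TAC library 1 and above them in TAC library 2. The sums of the 5 were 0.393 and 0.366% of reads in the sham libraries, and 0.331 and 0.595 in the TAC libraries. They overlapped between sham and TAC. The part of these in the Actc1 value was not tested.

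Tnnt1, the slow skeletal troponin T, had 24.5 and 19.8 CPM in the sham libraries, 13.4 and 11.8 in the TAC libraries and 16.7 and 17.3 in the knockdown libraries. Both sham libraries were the highest and both TAC libraries the lowest, and the log2 difference of -0.81 ± 0.18 missed the threshold (limma, adjusted p = 0.0904, and 0.0682 to 0.640 under the alternatives on the resolved libraries). Lmod2, leiomodin 2, which lengthens thin filaments at their pointed ends, had 1198 and 1311 CPM in the sham libraries, 1017 and 863 in the TAC libraries and 949 and 1117 in the knockdown libraries, a log2 difference of -0.42 ± 0.12 (adjusted p = 0.241). Tmod1, which caps the same ends, had 315 and 308 CPM in the sham libraries, 356 and 340.5 in the TAC libraries and 303 and 338 in the knockdown libraries, higher in both TAC libraries by a log2 difference of 0.16. Among tropomyosins, which lie along actin, Tpm1 had 11999 and 12053 CPM in the sham libraries, 11779 and 11129 in the TAC libraries and 11679 and 11264 in the knockdown libraries and a log2 difference of -0.07. Tpm2 and Tpm3 stayed between 44.9 and 66.0 CPM in all libraries, with overlapping groups; 40.03% of the 50-base stretches of Tpm3 transcripts recur in the near-copy Tpm3-rs7.

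Titin and 3 myomesins link the filaments along the sarcomere. Ttn had 6897 and 7117 CPM in the sham libraries, 7198 and 7151 in the TAC libraries and 7533 and 6188 in the knockdown libraries, a log2 difference of 0.03 between TAC and sham. Myom1, the main myomesin that ties myosin together at the M band, had 1849 and 2001 CPM in the sham libraries, 2439 and 2137 in the TAC libraries and 1825 and 2485 in the knockdown libraries, and Myom2 had 1368 and 1573 CPM in the sham libraries, 1741 and 1370.1 in the TAC libraries and 1324 and 1577 in the knockdown libraries. Myom3 was a low-abundance transcript with 65 and 62 reads in the sham libraries, 109 and 129 in the TAC libraries and 116 and 141 in the knockdown libraries, or 4.38 and 3.56 CPM in the sham libraries, 6.02 and 7.49 in the TAC libraries and 7.60 and 7.73 in the knockdown libraries. Its sham libraries were the lowest of the 6, and the log2 difference between TAC and sham was 0.76 ± 0.27 (limma, adjusted p = 0.356).

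In the Z disc, Pdlim5, a scaffold that binds alpha-actinin and protein kinases, had 752 and 684 CPM in the sham libraries, 801 and 1061 in the TAC libraries and 848 and 882 in the knockdown libraries, with sham lowest and a log2 difference of 0.36 ± 0.13 (limma, adjusted p = 0.365). Flnc, filamin C, which crosslinks actin, had 489.8 and 504 CPM in the sham libraries, 554 and 650.2 in the TAC libraries and 468 and 602 in the knockdown libraries, a log2 difference of 0.27. Cryab, the small heat shock protein alpha-B-crystallin that protects desmin and titin, had 2202 and 2237 CPM in the sham libraries, 1939 and 2043 in the TAC libraries and 2074 and 1990.1 in the knockdown libraries, and Myoz2, which tethers calcineurin to the Z disc, had 1546 and 1374 CPM in the sham libraries, 1329 and 1315 in the TAC libraries and 1406 and 1365 in the knockdown libraries; both were lower in both TAC libraries, by log2 differences of -0.16 and -0.14. Actn2, the alpha-actinin that anchors actin, had 3105 and 3257 CPM in the sham libraries, 3324 and 3375 in the TAC libraries and 2891 and 3561 in the knockdown libraries. Nrap, which takes part in myofibril assembly, had 1028 and 1197 CPM in the sham libraries, 1229.8 and 1235 in the TAC libraries and 955 and 1246 in the knockdown libraries and a log2 difference of 0.15. For the remaining 6 genes of the group (Tcap, Myot, Ldb3, Nexn, Nebl and Synpo2l) the groups overlapped, with log2 differences from -0.04 for Synpo2l to 0.36 for Myot. Over the 6 libraries the titin cap gene Tcap had 1472 to 1980.0 CPM, Ldb3, a PDZ and LIM protein that binds alpha-actinin, 1618 to 1819, the actin-binding Nexn 851 to 961, Nebl, a small relative of nebulin, 411 to 511, and Synpo2l 239 to 294. Myot, whose product myotilin crosslinks actin, at 78.3 and 119 CPM in the sham libraries, 112 and 136 in the TAC libraries and 89.7 and 128 in the knockdown libraries, differed by a log2 value of 0.60 between the 2 sham libraries alone.

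**Figure D3:**
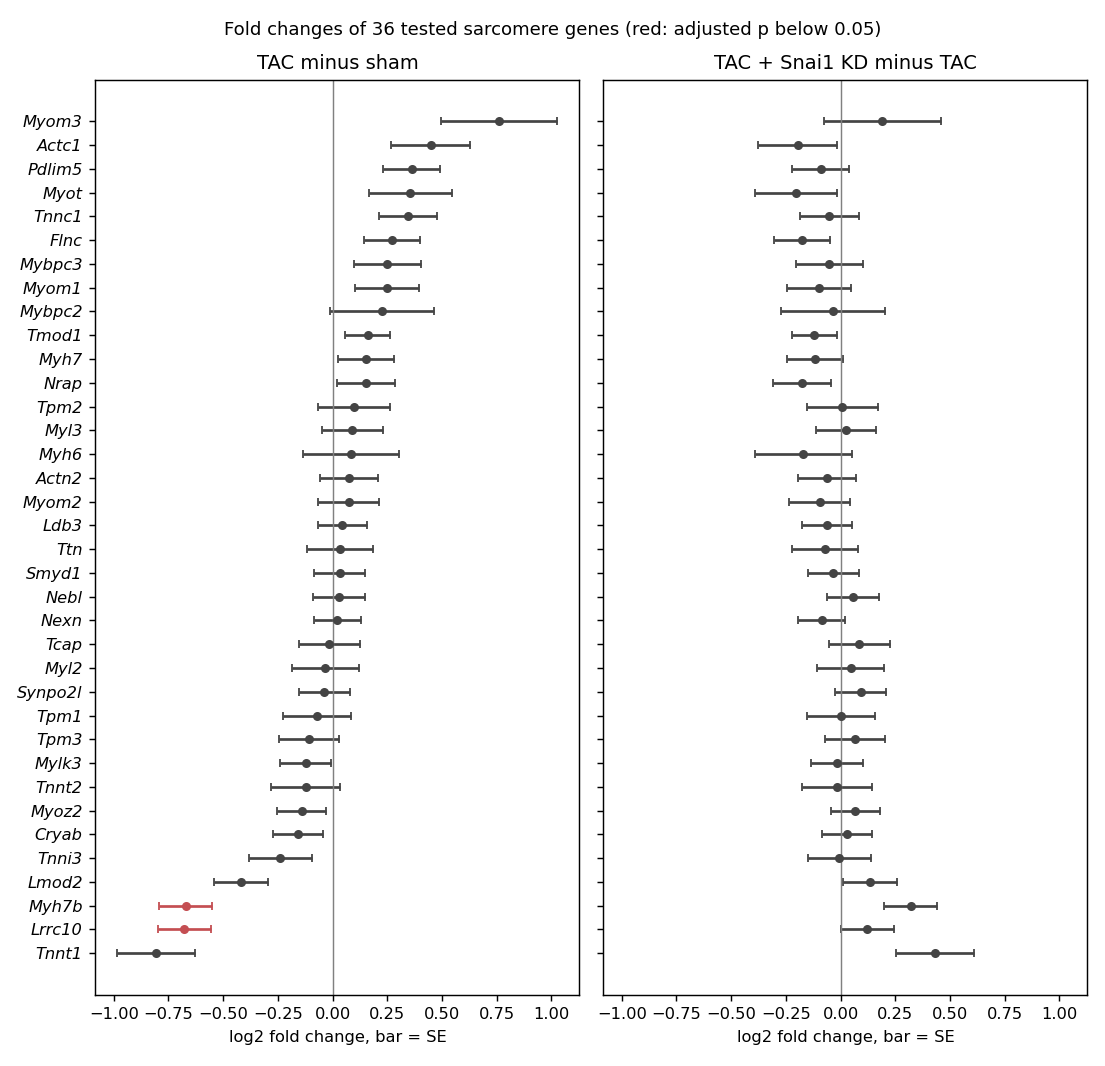
Log2 fold changes (points) with the standard error of the moderated fit (bars) for the 36 tested sarcomere genes, TAC minus sham on the left and TAC with Snai1 knockdown minus TAC on the right, in 1 order set by the left panel. Lrrc10 and Myh7b (red) passed the test on the left and no gene passed on the right; both panels use the TAC libraries, so they are not independent.

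The next comparison asks what Snai1 knockdown added to TAC. None of the 36 tested sarcomere genes passed, where 0% of all genes passed (0 sarcomere genes by limma, limma-voom and robust limma). At an unadjusted p below 0.05, 2 sarcomere genes were higher with knockdown (1.27% of all genes were) and 0 lower (0.810% of all genes), or 5.56% of them against 2.08% of all genes. They were Myh7b, with a log2 difference of 0.32 ± 0.12, and Tnnt1, with 0.43 ± 0.18 (limma, adjusted p = 0.999 for both). Limma-voom and robust limma also gave 2 genes at the unadjusted threshold, and the share of all genes with those tools is not given here. For Myh7b and Tnnt1, the knockdown libraries lay above the TAC libraries and below the sham libraries, as their values above show. Lrrc10, with a log2 difference of 0.12 ± 0.12, and Lmod2, with 0.14 ± 0.12, had overlapping groups (adjusted p = 0.999 for both), and the difference of Lrrc10 turned to -0.02 without TAC library 2.

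The groups did not overlap for 6 of the 36 genes (16.7%, against 28.5% of all genes), with knockdown above for 4, Myh7b, Tnnt1, Myom3 and Myoz2 (16.0% of all genes), and below for 2, Myh6 and Tmod1 (12.4% of all genes). With quantile normalization 3 did not overlap, 2 above and 1 below, and the share of all genes under that scaling is not given here. Myh6 had a log2 difference of -0.17 ± 0.22 with a 95% interval from -0.64 to 0.30, and Myh7 one of -0.12 ± 0.13 with an interval from -0.39 to 0.15 (limma, adjusted p = 0.999 for both). Tmod1 stood at -0.12 ± 0.10, Flnc at -0.18 ± 0.13 and Nrap at -0.18 ± 0.13 (adjusted p = 0.999 for each). Without knockdown library 1 the differences of Flnc and Nrap were 0.00 and 0.02, and that of Myh7 turned to 0.07. The median log2 difference over the 36 genes was -0.02, against 0.02 over all genes.

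Between knockdown under TAC and sham, no sarcomere gene passed, where the test called 0.242% of all genes, 0.138% higher and 0.104% lower (0 of the 36 by limma, limma-voom and robust limma). At an unadjusted p below 0.05, 5 of the 36 genes differed (13.9%, against 8.80% of all genes), 2 higher (6.02% of all genes were) and 3 lower (2.78% of all genes). Limma-voom gave 7 and robust limma 6, and the share of all genes with those tools is not given here. This comparison shares its sham libraries with that of TAC and its knockdown libraries with the preceding one. Lrrc10 had a log2 difference of -0.56 ± 0.12 (limma, adjusted p = 0.105), beside -0.68 in TAC. Myom3 had 0.95 ± 0.27 (adjusted p = 0.261), beside 0.76. Myh7b had -0.35 ± 0.12 (adjusted p = 0.394), beside -0.67, and Tnnt1 had -0.37 ± 0.18 (adjusted p = 0.577), beside -0.81. Lmod2 had -0.28 ± 0.12 and Tnnc1 0.29 ± 0.13 (adjusted p = 0.534 and 0.562). Myh6 and Myh7 had -0.09 ± 0.22 and 0.04 ± 0.13 (adjusted p = 0.946 and 0.965), and the sign of each depended on which library was left out. The groups did not overlap for 13 of the 36 genes (36.1%, against 39.3% of all genes), 4 above (25.4% of all genes) and 9 below (13.8% of all genes).

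Ratios of related genes within a library do not depend on the scaling between libraries. With 2 libraries a group, an exact two-sided permutation test of 1 ratio cannot reach 0.05, so they are given as values. Relative to those of Myh6, the reads of Myh7 came to 1.72 and 1.90% in the sham libraries, 1.80 and 2.01 in the TAC libraries and 1.87 and 2.07 in the knockdown libraries. The groups overlapped, and in each of them library 2 had the higher ratio. Relative to Myh6, Myh7b came to 0.236 and 0.241% in the sham libraries, 0.125 and 0.160 in the TAC libraries and 0.225 and 0.176 in the knockdown libraries. The 3 groups did not overlap, with sham highest and TAC lowest. Relative to Tnnt2, Tnnt1 came to 0.185 and 0.150% in the sham libraries, 0.111 and 0.0973 in the TAC libraries and 0.135 and 0.149 in the knockdown libraries, also with sham highest and TAC lowest.

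Relative to Myom1, Myom3 came to 0.237 and 0.178% in the sham libraries, 0.247 and 0.351 in the TAC libraries and 0.417 and 0.311 in the knockdown libraries, and both sham libraries were lowest. The skeletal form Acta1, relative to Actc1, came to 4.44 and 4.10% in the sham libraries, 4.92 and 7.96 in the TAC libraries and 4.19 and 8.27 in the knockdown libraries, so that library 2 of TAC and of knockdown stood apart from the other 4 libraries. Mybpc2, relative to Mybpc3, came to 1.12 and 1.35% in the sham libraries, 0.959 and 1.52 in the TAC libraries and 1.06 and 1.41 in the knockdown libraries, with library 2 above library 1 in each group. The atrial light chain genes Myl7 and Myl4 had reads of 0.224 to 0.472% of Myl2 and 0.678 to 1.26% of Myl3. For Myl7 both TAC libraries, at 0.472 and 0.365%, lay above both sham libraries, at 0.353 and 0.224%, while Myl4 overlapped between sham and TAC. Tpm2 and Tpm3 had 0.380 to 0.593% and 0.381 to 0.4999% of those of Tpm1. The Myom2 to Myom1 ratio lay between 63.4 and 78.6%, with both sham libraries above the other 4. Tnni1 reads were at most 0.00705% of those of Tnni3.

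**Figure D4:**
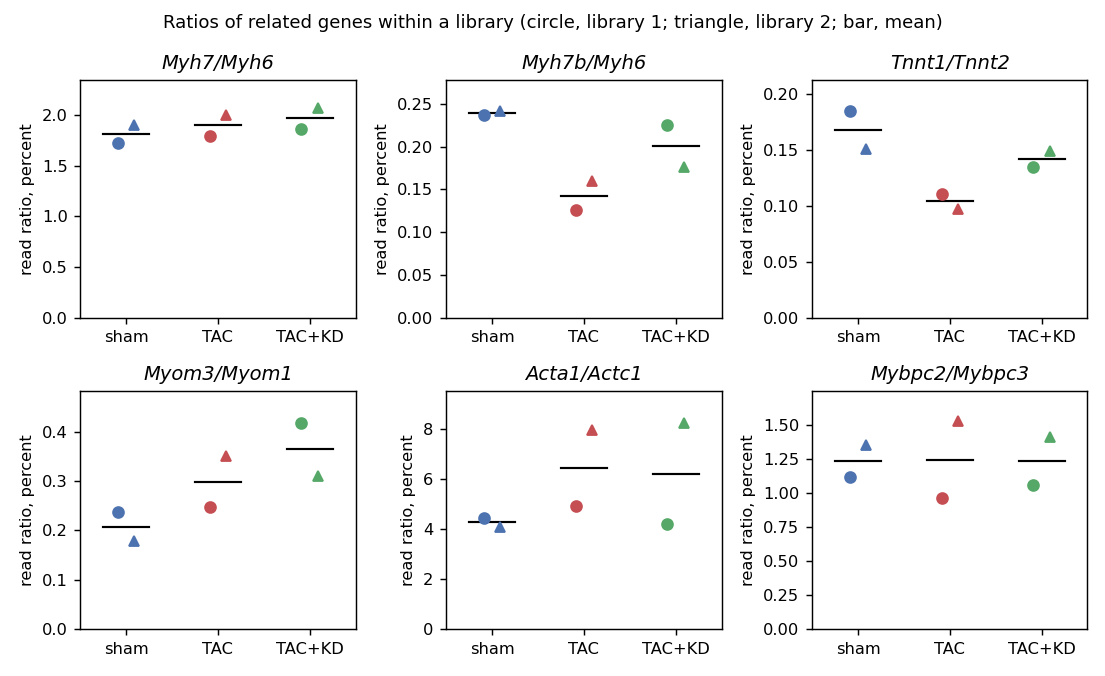
Reads of the first gene as a percentage of those of the second, in each library (circle, library 1; triangle, library 2; bar, group mean; axes start at 0). The Myh7b to Myh6 and Tnnt1 to Tnnt2 ratios are highest in sham and lowest in TAC, while Myh7 to Myh6 overlaps between groups.

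The differences between groups stand beside those between the libraries of a group. Among the 34 sarcomere genes that averaged 500 reads or more in the group, the median absolute log2 difference between the libraries was 0.11 between the sham, 0.17 between the TAC and 0.21 between the knockdown libraries, against 0.13, 0.13 and 0.12 over all genes at that depth. With knockdown the difference ran mostly one way: 24 of the 34 were higher in library 2, with a median of 0.17, where all genes at that depth had a median of -0.03. Without the limit on depth, 26 of the 36 tested sarcomere genes were higher in library 2, against 39.4% of all tested genes. The largest differences of sarcomere genes with knockdown were 0.84 for Mybpc2, 0.52 for Myot, 0.45 for Myom1 and 0.42 for Mybpc3. Ttn went the other way with -0.28. The cardiomyocyte markers outside the sarcomere summed to 4.24 and 4.39% of reads in these libraries, and their macrophage markers to 0.0811 and 0.0570%. In TAC the largest were 0.59 for Mybpc2, 0.47 for Tpm2, -0.43 for Tcap and 0.40 for Pdlim5.

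**Figure D5:**
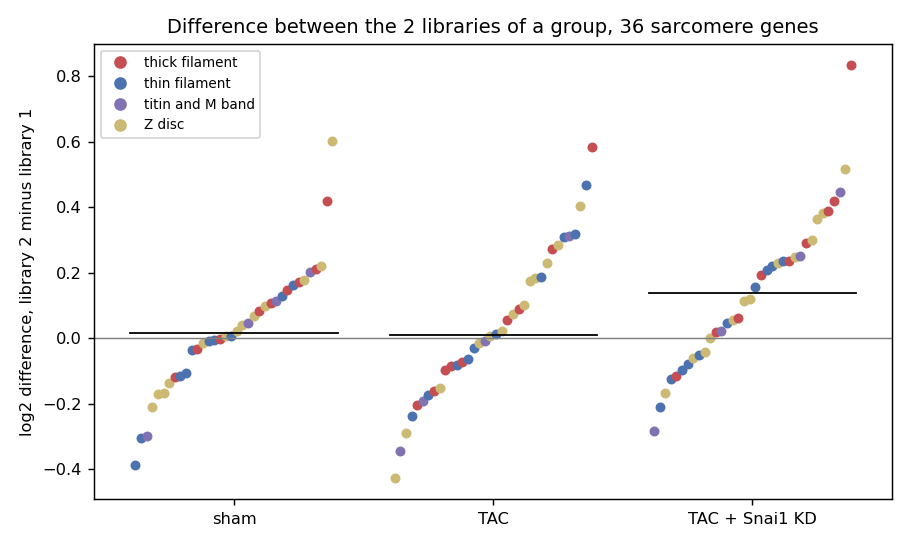
Log2 difference between the 2 libraries of each group (library 2 minus library 1) for the 36 tested sarcomere genes, sorted within a group and coloured by the part of the sarcomere, with the median as a black line. The points of sham and TAC are centred near 0, while those of the knockdown libraries are shifted upwards. Mybpc2 is among several genes above 0 in all 3 groups, and Tnni3 and Myoz2 are below 0 in all 3 groups.

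Beyond these 37, a list of 72 further genes of myofibrils and their maintenance was examined, of which 70 were in the table and 61 were tested. None passed limma's adjusted p of 0.05 in any comparison. Limma-voom and robust limma each called 1 of them, Fhl2, between TAC and sham and 0 in the other comparisons. Over all 14447 genes, limma-voom called 16 and robust limma 31 between TAC and sham. At an unadjusted p below 0.05, 9 of 61 differed between TAC and sham (14.8%), 3 between knockdown and TAC (4.92%) and 7 between knockdown and sham (11.5%), beside 9.57%, 2.08% and 8.80% of all genes. Nearest to the threshold between TAC and sham was Fhl2, a LIM protein that binds titin, with 1422 and 1319 CPM in the sham libraries, 1962 and 2233 in the TAC libraries and 1894 and 1928 in the knockdown libraries and a log2 difference of 0.61 ± 0.12 (limma, adjusted p = 0.0552). Alpk2, an alpha-kinase gene, followed with 0.41 ± 0.11 (0.202) and had -0.28 ± 0.11 between knockdown and TAC. Myl4, the atrial essential light chain, had -0.52 ± 0.21 in the latter comparison (adjusted p = 0.999 for both). Between knockdown and sham, Fhl2 had 0.48 ± 0.12 and Bag3, a co-chaperone of the Z disc, -0.31 ± 0.11 (adjusted p = 0.164 and 0.448).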

How the data were processed

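The 6 columns of the table were used, 1 per sample, mapped to the samples by the group and number in their names. The values are log2 counts per 1000000 reads as deposited by the authors, and limma and the build mm10 are named, without versions, in the submitters' processing notes; which aligner, counter, annotation and strand setting were used is not given in the sources used here. Each deposited log2 column had the form of log2 CPM with 0.5 added to the reads. Taking the columns of a group out of the log and treating them as mixtures of 60% and 40% gave whole counts, within 0.05, for 99.9% of 115920 values and 0 negative values, against 20.6 to 21.1% for the 12 pairs of columns from different groups. Such mixing is mentioned in none of the sources. Each library takes its number from the column that holds 60% of it.

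The resolved counts were put on log2 CPM (0.5 reads added, library totals as the scaling; 3 reads are 0.164 to 0.202 CPM) and fitted over all 6 libraries with 1 mean per group by limma 3.58.1 (intensity trend, R 4.3.3; 3 residual and 11.3 prior degrees of freedom). Genes needed the CPM of 10 reads in the median library in at least 2 libraries and 15 reads in all; 14447 were kept. A call is a Benjamini-Hochberg adjusted p below 0.05 over these. Fold changes understate the change of genes with few reads. The procedure was tested on simulated data that held only 2-fold and 4-fold changes, so smaller ones such as those of Lrrc10 and Myh7b were not covered. The median SE was 0.1707 in the simulation and 0.1905 in the data. Coordinates and exon lengths are from GENCODE M21 (GRCm38); 32 of 37 genes matched the RefSeq promoter table. Full statistics were given for the genes called in any comparison, for the 6 with the smallest p in each comparison, and for Myh6 and Myh7; the others have levels and differences. The genes, lists and tests were chosen with earlier results of these data known. Alternatives were the deposited columns, quantile and median ratio scaling, 2 reads added, no filter, limma-voom, robust limma, a replicate block and leaving out each library. No negative binomial count model was run on the resolved counts, although one would have been possible.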

Additional observations from a re-analysis of the deposited data

How the results depend on the processing

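The number of sarcomere genes called between TAC and sham was 2 with both other scalings, 2 reads added, limma-voom, robust limma and the replicate block, 0 with no filter on low values, where 19320 genes were tested, and 0 to 1 when 1 library was left out. It was 0 in the other 2 comparisons under all of these. In the columns as deposited, whose spread is between mixtures of the same libraries, 25 were called between TAC and sham, 17 between knockdown and TAC and 25 between knockdown and sham, and 34, 27 and 32 had groups that did not overlap. Of all 19320 genes, 13812, 12137 and 13669 were called in these columns, in the same order of comparisons. Groups did not overlap for 12298, 11561 and 12233 of 14447 genes. Most genes were thus called there, and the counts are not read as a result of the sarcomere genes. With quantile normalization 3 sarcomere genes did not overlap between knockdown and TAC. The median log2 difference of the 36 genes stayed between -0.08 and 0.09 in every comparison and setting, and changed sign in some. Signs that reversed belonged to differences that were not called: Myh7 between knockdown and sham was -0.019 with median ratio scaling and -0.16 to 0.23 with 1 library left out, Myh7 between knockdown and TAC -0.31 to 0.075, Lrrc10 between knockdown and TAC -0.022 to 0.27, Flnc -0.36 to 0.0043, Nrap -0.37 to 0.015, and Myh6 between knockdown and sham -0.20 to 0.033; the cause was not tested. The replicate numbers do not pair the samples in the labels, and deviations of same-numbered libraries correlated at -0.04 to 0.07. With the replicate block, 40 genes in all were called between TAC and sham, 1 between knockdown and TAC and 36 between knockdown and sham, against 23, 0 and 35. Over all genes between TAC and sham, the alternatives on the resolved libraries with all 6 of them called 9 (no filter) to 42 (2 reads added), and leaving out 1 library gave 3 to 45; between knockdown and sham the ranges were 14 to 37 and 5 to 50. The depth of Tnni1 and Myom3 limits what can be said of them, and 2 libraries a group limit every comparison.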

Other observations

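Promoter windows of RefSeq (250 bases before to 50 after the start) were found for 32 of the 37 sarcomere genes, in 45 windows. A CArG box, the site of serum response factor, was found in 6 of the 45 windows, of Actc1, Ldb3, Myl3, Myom1 and Nebl, and in 1.63% of all 32851 windows. A MEF2 site was found in 6 of 45, of Mybpc3, Myom3, Myoz2, Synpo2l and Ttn, and in 3.19% of all. CATTCC was found in 13 of 45 (14.7% of all), GATAA in 14 of 45 (25.4%) and CANNTG in 35 of 45 (72.3%). Several windows belong to the same gene, and a match is a description of the sequence only.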
